A study of Rattus norvegicus with 10 samples.

Results

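Prolactin receptor and JAK-STAT signaling genes were examined in the arcuate nucleus (ARC) of Wistar rat dams at parturition. The genes were chosen by name, as the rows of the authors' deposited expression table whose gene name was one of 9 listed symbols. Of the 9, 7 were found among 12828 genes: *Prlr*, *Prlhr*, *Jak2*, *Stat5a*, *Stat5b*, *Stat3* and *Socs2*. The other two, *Socs3* and *Cish*, had no row, so their expression was not analysed here.

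RNA-sequencing covered 10 dams in the diet groups 5X-FA and 5X-MTHF, with 5 dams in each. Both groups were first-time pregnant rats, bought when already in early pregnancy. From then until term they received the same AIN-93G base diet, with folate at 5 times the recommended quantity. All dams were killed after a daytime fast. In 5X-FA the folate was folic acid, and in 5X-MTHF an equimolar quantity of [6S]-5-methyltetrahydrofolic acid. No group at the recommended dose was sequenced, and the age of the dams was not stated in the sources used here. The ARC was cut out free hand from a frozen coronal slice, with the third ventricle as the guide.

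The study asked whether the form of folate alters expression in the ARC. That comparison could not be made here from values per dam. The 10 per-sample columns of the table bear bare numbers that match no label of a dam or diet. They were used in no step, and no value by dam or by diet is given for any gene. The values below come from a column the authors headed logCPM, with a single value per gene (CPM being read counts scaled to the size of each library). The heading names no sample, so the column was read here as the authors' mean over all libraries, the average log2 CPM. Whether logs were averaged, or the log was taken of an average, is not given in the sources used here. A mean of this kind pools both diets and comes with no SD and no n. CPM is a share of reads and is not corrected for transcript length, so a longer transcript takes more reads at the same abundance. The position of a gene among all genes therefore tells how many reads stood behind it, not how many transcripts there were. The authors' table is labelled as filtered, so "all genes" here means the 12828 genes kept, not every gene of the rat. Whether a gene with no row was removed by that filter was not tested.

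Prolactin is a pituitary hormone that acts on the brain through the prolactin receptor, a class I cytokine receptor with no kinase of its own. The long form of the receptor is bound by the kinase JAK2, which phosphorylates STAT5A and STAT5B, and these enter the nucleus and switch on target genes. Among the targets are the SOCS proteins and CISH, which feed back to dampen the signal. In the ARC the best known prolactin-responsive cells are the tuberoinfundibular dopamine neurons, which restrain prolactin release and become less responsive around birth and lactation.

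Both receptors were covered by fewer reads than most genes in the table. *Prlr* (ENSRNOG00000057557), the prolactin receptor, lies on chromosome 2 of Rnor_6.0 from 60131776 to 60325692 and spans 193917 bp. Its authors' mean was an average log2 CPM of 2.21, or 4.63 CPM, and 8.2% of the genes in the table had a lower value. Counts were made per gene, so reads of the long form, which signals through JAK2 and STAT5, and of the short form, which does not signal through STAT5, were not separated. *Prlhr* (ENSRNOG00000009922) encodes the G protein-coupled receptor of prolactin-releasing peptide, which, despite its name, is no part of the JAK-STAT pathway. It lies on chromosome 1 from 281754724 to 281756159, an extent of 1436 bp. Its authors' mean was 1.89 on the log2 CPM scale, or 3.71 CPM, with 6.14% of genes below it. As transcript lengths were not at hand, no order of transcript abundance can be read from these shares of reads.

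The kinase and the 3 STAT genes each had more reads behind them than either receptor, *Stat5a* the fewest of the 4. *Jak2* (ENSRNOG00000059968), the kinase that sits on the prolactin, growth hormone and leptin receptors, lies on chromosome 1 from 247398598 to 247458509. Its authors' mean was 6.08 log2 CPM, or 67.8 CPM, and 73.3% of genes had a lower value. *Stat3* (ENSRNOG00000019742), the factor activated by the leptin receptor and by gp130 cytokines, had an authors' mean of 6.47 log2 CPM, or 88.4 CPM, with 79.8% of genes below it. *Stat5b* (ENSRNOG00000019075) had an authors' mean of 5.47 log2 CPM, or 44.2 CPM, with 61.0% of genes below it. For *Stat5a* (ENSRNOG00000019496), its close paralog, the authors' mean was 3.26 log2 CPM, or 9.57 CPM, and 19.2% of genes had a lower value. The coding sequences of the STAT5 genes are much alike. Whether reads that fit both were counted for either gene or left out is not stated in the sources used here.

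*Socs2* (ENSRNOG00000008965), a suppressor of cytokine signaling that is induced by STAT5, was the single feedback inhibitor of the listed genes with a row. It lies on chromosome 7 from 36495480 to 36499784, an extent of 4305 bp. Its authors' mean was 2.46 log2 CPM, or 5.49 CPM, with 10.3% of genes below it. The 7 genes thus ran from 1.89 to 6.47 log2 CPM with a median of 3.26. The median of all 12828 genes was 4.94, and 3 of the 7 (*Jak2*, *Stat5b* and *Stat3*) were above it.

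**Figure D1:**
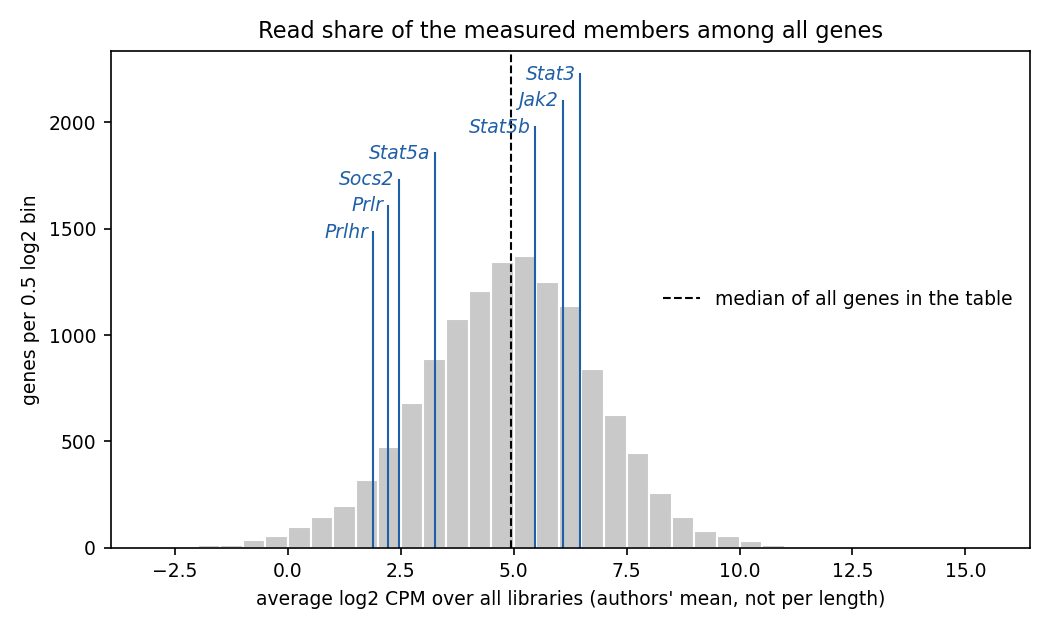
Histogram of the average log2 CPM (authors' mean over all libraries, both diets pooled, not per length) of the 12828 genes in the table, counted in bins of 0.5. The blue lines mark the 7 measured genes and the dashed line the median of all genes, 4.94. *Prlhr*, *Prlr*, *Socs2* and *Stat5a* sit to its left at 1.89 to 3.26, and *Stat5b*, *Jak2* and *Stat3* to its right at 5.47 to 6.47.

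Among the 7 genes, 3 are immediate neighbors. On chromosome 10 of Rnor_6.0 *Stat5b* runs from 88686207 to 88754829, *Stat5a* from 88764732 to 88789057 and *Stat3* from 88790408 to 88842233. The gap between *Stat5b* and *Stat5a* is 9902 bp, and that between *Stat5a* and *Stat3* is 1350 bp. No other gene of the table lies between them, and 0 of the gene extents overlap. The whole stretch covers 156 kb. The nearest genes of the table on either side are *Ghdc*, 9.15 kb away, and *Cavin1*, 18.5 kb away. On chromosome 2, *Prlr* lies 6.72 Mb from *Ghr*, the growth hormone receptor, a close relative in the cytokine receptor family.

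**Figure D2:**
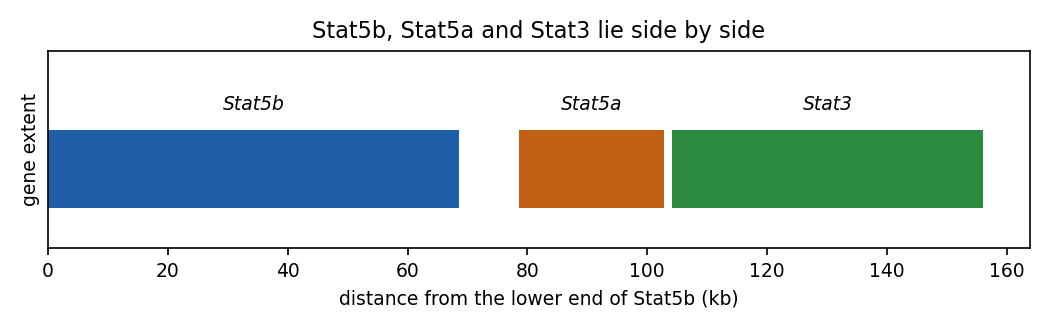
Map of the chromosome 10 stretch that holds the 3 STAT genes, drawn to scale from the gene extents in the table. The horizontal axis is the distance in kb from the lower end of *Stat5b*, and the bars are the gene extents, which cover 156 kb with gaps of 9902 and 1350 bp.

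Promoter sequences were searched for the palindrome TTCNNNGAA, the core of the sites that STAT dimers are known to bind. Being its own reverse complement, it reads the same on both strands. The RefSeq windows of build GRCr8 cover 250 bases before and 50 bases from each transcription start, and 8 of the 9 listed genes had at least 1 window (9 windows in all, since *Prlr* has 2 starts). *Socs2* had no window. Of the 9 windows, 2 held the palindrome, those of *Cish* and of the second start of *Prlr*, against 8.87% of the 33469 windows of all genes. No match in a window says only that these letters are absent there. No binding or chromatin was measured in these samples, and *Cish* had no expression value, so the matches are a description of sequence alone.

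*Cish* held 4 matches, TTCCTGGAA, TTCTTGGAA, TTCTAGGAA and TTCCGGGAA, which begin 241, 230, 136 and 119 bases before the start. At least 4 matches were found in 2 of the 33469 windows (0.006%), that of *Cish* among them. The threshold of 4 was taken from *Cish* itself, so this share only describes its window. The window of *Prlr* held TTCTAGGAA, which begins 176 bases before its second start. Both windows, on the plus strand at chr8:116850719-116851018 for *Cish* and chr2:60909409-60909708 for *Prlr*, are shown because they carry these matches, which are in capitals.
Cish: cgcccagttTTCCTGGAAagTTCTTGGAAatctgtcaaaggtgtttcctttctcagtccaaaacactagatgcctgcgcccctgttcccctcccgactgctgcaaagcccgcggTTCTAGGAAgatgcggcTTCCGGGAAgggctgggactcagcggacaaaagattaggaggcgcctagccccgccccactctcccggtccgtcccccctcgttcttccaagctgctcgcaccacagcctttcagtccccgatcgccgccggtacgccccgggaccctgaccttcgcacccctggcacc
Prlr, second start: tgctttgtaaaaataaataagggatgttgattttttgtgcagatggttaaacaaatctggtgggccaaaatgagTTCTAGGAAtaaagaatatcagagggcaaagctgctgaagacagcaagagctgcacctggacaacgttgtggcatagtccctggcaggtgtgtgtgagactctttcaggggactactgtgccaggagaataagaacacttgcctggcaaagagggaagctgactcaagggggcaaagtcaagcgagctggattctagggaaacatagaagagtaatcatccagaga

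The GC content varied among the windows. Those of *Jak2* and *Stat5b* were 80.3% and 82.7% G or C, and those of *Stat5a*, *Socs3*, *Stat3* and *Cish* were 69.0%, 70.7%, 62.3% and 62.0%. *Prlhr* had 58.3%, and the first and second starts of *Prlr* had 54.3% and 45.3%. The median of all windows was 51.7%, so the second start of *Prlr* was the single window of the 9 below it.

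Other genes of the pathway were taken from 5 lists with 74 symbols in all, of which 60 were found. Among the other 14, which had no row, *Lnk* is another name of *Sh2b3*, which was found with 4.73 log2 CPM. The expression of the rest was not analysed here. The authors' means of the genes found ran from 0.08 to 9.01 log2 CPM with a median of 4.68, and 26 of the 60 were above the median of all genes. Of 19 other cytokine receptors and ligands, 11 were found, with a median of 5.20 log2 CPM. Those with the most reads were *Il6st*, which encodes gp130, the shared signal chain of the interleukin-6 family, with an authors' mean of 6.79, *Ifnar1*, a chain of the type I interferon receptor, with 6.48, and *Cntfr*, the receptor for ciliary neurotrophic factor, with 5.79. *Ghr*, chosen after its value was seen, had 4.40 log2 CPM. *Prl*, *Prlh* and *Lepr*, the genes of prolactin, prolactin-releasing peptide and the leptin receptor, were among the 8 with no row, whose expression was not analysed here.

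Of 7 other kinases and STATs, 5 were found. *Jak1*, a kinase that pairs with gp130 and interferon receptors, had an authors' mean of 7.80 log2 CPM. *Stat2*, which carries type I interferon signals, had 5.20. Of 22 symbols for inhibitors and adaptors, which count *Sh2b3* again as *Lnk*, 20 were found, with a median of 4.72. *Ptpn11*, the phosphatase SHP2, had 9.01 log2 CPM and took more reads than 98.4% of the genes. *Sos1*, an exchange factor that links receptors to RAS, had 7.01 and *Socs5*, another suppressor of cytokine signaling, had 6.99.

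Of 13 target genes of STAT5 or STAT3, 11 were found, with a median of 3.36 log2 CPM, and 3 of them were above the median of all genes. These were *Bcl2l1*, an inhibitor of cell death, with 6.43, *Ccnd1*, cyclin D1, with 5.56, and *Pim3*, a survival kinase, with 5.07. All 13 genes of the list for dopamine neurons and hormone-sensitive ARC cells were found, from 0.08 for *Kiss1* to 6.61 for *Pdyn*. Their median was 4.49 log2 CPM, and 6 of them were above the median of all genes. *Pdyn*, the precursor of dynorphin, had 6.61, *Dlk1*, a membrane protein of the Notch ligand family, had 6.28 and *Slc6a3*, the dopamine transporter, had 5.48. *Th*, the rate-limiting enzyme of dopamine synthesis, was chosen after its value was seen and had 5.20 log2 CPM. Whether the reads of these genes came from ARC cells or from other areas in the sample was not tested.

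**Figure D3:**
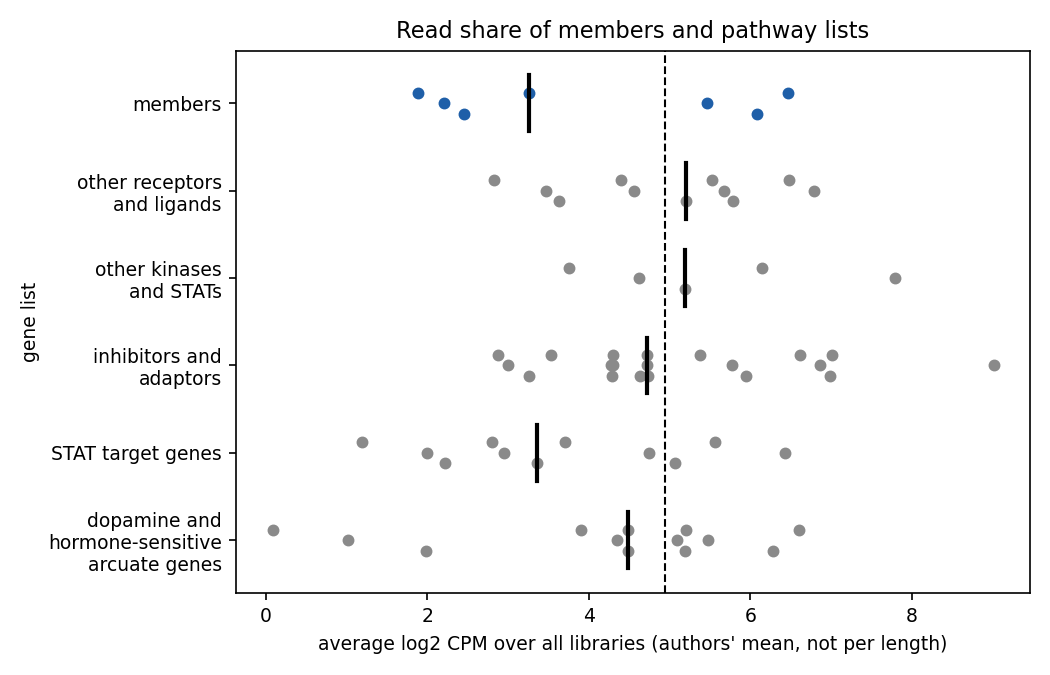
Average log2 CPM (authors' mean over all libraries, both diets pooled, not per length) of the 7 measured genes (blue) and of the genes found in each of 5 pathway lists (gray), 1 point per gene. Black bars are list medians, from 3.26 for the blue points to 5.20 for the other receptors and ligands, and the dashed line is the median of all genes, 4.94. Vertical shifts within a row only keep points apart.

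The labelled tissue was set against marker genes. Of 8 markers of arcuate neurons 7 were found, and *Npy* had no row. The 7 ran from *Kiss1* at 0.08 to *Cartpt* at 6.02 log2 CPM, with a median of 2.45. Between them lay *Pomc* at 4.67 and *Agrp* at 1.42. Markers of neighboring hypothalamic areas were also present, with *Pmch* of the lateral hypothalamus at 9.24 and *Oxt* of the paraventricular nucleus at 8.33. Both markers of the ventromedial nucleus were found, at 1.88 and 4.01 log2 CPM. All 6 striatal markers were found, from 4.26 to 7.07 log2 CPM with a median of 5.67. All 4 thalamic markers were found, from 2.34 to 7.43 with a median of 5.04, and 3 of 5 cortical and hippocampal markers, from 2.40 to 7.17 with a median of 3.34. These are shares of reads and are not corrected for transcript length. Of 11 markers of choroid plexus, an epithelium that expresses *Prlr* strongly, 5 were found, at 0.83 to 3.06 log2 CPM, with *Ttr* the highest. The part of these cells in the reads of *Prlr* was not tested. Of 8 pituitary markers, 3 were found, with *Cga* at 4.95 and *Tshb* at 3.37. In a bulk sample fewer cells of a type and less RNA per cell cannot be told apart.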

How the data were processed

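Poly-A RNA of the ARC of 10 dams (5 on each diet) was sequenced. Per the submitters' processing notes and the paper's methods, the authors trimmed reads with Trim Galore 0.5.0, aligned them with STAR 2.6.0c to Rnor_6.0 with Ensembl gene models and counted them per gene with HTSeq 0.6.1p2. The authors deposited 1 table of 12828 genes, 12383 of them protein-coding, which is labelled as filtered. The paper describes a minimal read filter before its own test, and whether that filter made this table is not stated. The authors' column headed logCPM, read here as the average log2 CPM over all libraries, is the single measurement used. The tool that made it is not given in the sources used here. Base 2 was settled from the values, since 2 raised to them sums to 1002152 over all genes, whereas the other usual log bases give sums far above what CPM allows.

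Another 10 per-sample columns matched no sample label and were not used. A further 4 columns hold the authors' own comparison of the diets (fold change, F statistic, p-value, FDR), and these were not used either. No test between diets was therefore run, although tests on values per dam had been planned. The paper gives an approximate sequencing depth per sample, but the depth reached by each library could not be obtained.

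The percentage of genes with a lower average was computed for each gene. Promoter windows (RefSeq, GRCr8) were matched by symbol and searched for the palindrome. Their coordinates and those of Rnor_6.0 were kept apart. Both calculations were tested on simulated data. Named genes were the listed members, the 3 genes with the most reads in each pathway list and up to 4 of the markers found per cell type. One gene this rule selects is not reported here. Others are marked as chosen after their values were seen. Members and lists were chosen with earlier results of these data known. The software was Python 3.11.15 with matplotlib 3.10.9, pandas 2.3.3 and scipy 1.17.1.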

Additional observations from a re-analysis of the deposited data

How the results depend on the processing

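The average log2 CPM of each gene is the authors' mean and did not depend on any choice made here. Its position among other genes did. The median of the 7 measured genes, which is the value of *Stat5a*, had 19.2% of all genes below it, 17.4% of protein-coding genes and 16.8% of genes whose average log2 CPM was 1 or more. All 7 genes ranked lower under both alternatives, by 0.506 to 1.84 and by 0.592 to 2.76 percentage points. When an average log2 CPM of 4 or more was required, 4 of the 7 genes drop out and no median position could be given. *Jak2*, *Stat3* and *Stat5b* then had 61.2%, 70.7% and 43.4% of the remaining 8829 genes below them, since the filter removes genes with few reads. The planned level per kilobase of transcript was not run because no transcript length was at hand. The other settings intended for the diet comparison (pseudocount, filter, scaling, DESeq2, variance model and leaving out each library) were not run, as no column could be given to a diet. No paired analysis was possible because the columns carry no replicate number that can be matched to a dam. Without values per dam, neither the spread between dams nor a difference between diets in any of the genes is known from the values used.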
